A study of Mus musculus with 13 samples.

Results

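Wdfy1 and 6 core genes of the TRIF signalling arm (Ticam1, Ticam2, Tlr3, Traf3, Tbk1 and Irf3) were followed through 13 RNA-seq libraries of mouse bone marrow progenitors. The 7 genes were picked by symbol from a table of 24062 rows, and all 7 were among the 11867 rows whose mean reached 0 log2 CPM (read counts scaled to library depth, on a log2 scale), the level above which genes were tested. Wdfy1 was picked because its level was already known to be high in the libraries that lack miR-146a. Its differences between libraries with and without miR-146a are therefore described here without a test.

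The cells were LK cells, a marrow fraction without lineage markers or Sca-1 that carries c-kit, which holds committed myeloid, erythroid and megakaryocyte progenitors. There were 13 libraries: 4 were dKO (TIFAB-/-;miR146a-/-), and 3 each were miR-146a_KO (TIFAB+/+;miR146a-/-), TIFAB_KO (TIFAB-/-;miR146a+/+) and WT (TIFAB+/+;miR146a+/+). In every group the donor marrow had been given to Boy/J recipients that had received 7.0 Gy and, 3 hours later, 4.75 Gy, so all groups share the irradiated host and the transplantation, and cells of the host that survived would carry intact copies of both genes. The labels give an age of 2 to 5 months, state 3 mice per group, and do not say whether donor cells were gated in the sort or whether each library was a separate mouse. The p-values below therefore measure the spread between libraries, which may be partly technical. The study asks how the loss of TIFAB and the loss of miR-146a, 2 genes of the region deleted in human del(5q) myelodysplastic syndrome, act together.

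TRIF, the product of Ticam1, is the adaptor through which Toll-like receptor 3 and, from endosomes, Toll-like receptor 4 reach the kinase TBK1 and the transcription factor IRF3, and so the type I interferon genes. TRAM, the product of Ticam2, bridges Toll-like receptor 4 to TRIF, and TRAF3 is the ubiquitin ligase that carries the signal on to TBK1. WDFY1 is a FYVE-domain protein of early endosomes that has been described to bring TRIF to Toll-like receptors 3 and 4. miR-146a is a brake on the neighbouring MyD88 arm, where it represses Traf6 and Irak1.

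The mature miR-146a-5p that the dKO and miR-146a_KO cells lack is shown here because the absence of its seed match from the members is a feature that the choice of genes did not use. It is encoded on the minus strand of chr11:43374435-43374456 (GRCm38.p6, RefSeq), and its seed, bases 2 to 8, is in capitals.
mmu-miR-146a-5p: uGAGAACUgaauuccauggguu
The complement of that seed, AGTTCTC on the transcript strand, was searched in the longest annotated 3′ untranslated region (UTR) of each gene. It occurred in 0 of the 7 members and in 10.8% of 21663 genes. The UTR of Wdfy1 is 3249 bases long, and 24.4% of genes with a UTR of like length hold the match. For Traf3, whose UTR is 5093 bases long, that share is 37.8%. These are the 2 highest shares. It is 22.2% for Ticam2, 11.4% for Tlr3, 4.96% for Tbk1, 4.77% for Ticam1 and 4.17% for Irf3. Whether 0 of 7 is fewer than these shares give was not tested. The absence of these letters says nothing of other kinds of site.

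For comparison, the match was present in 8 of 86 other genes of the arm that had an annotated UTR (9.30%), namely Traf6, Ripk1, Azi2, Sike1, Ifit2, Stat2, Ifi44 and Wdfy4. Traf6 has 4 matches on the plus strand of chromosome 2 and Ripk1, the kinase that binds TRIF on the way to NF-kB and cell death, has 2 on the plus strand of chromosome 13. They are printed from the GENCODE M21 transcript sequences with their mm10 (GRCm38) positions, and the 7 bases that pair with the seed are in capitals.
Traf6, chr2:101697944-101697969: accgctctggtgttgAGTTCTCattt
Traf6, chr2:101698008-101698033: tccctggaaggcttaAGTTCTCaagt
Traf6, chr2:101698820-101698845: agtactttggagtctAGTTCTCaggg
Traf6, chr2:101701344-101701369: ggactttgctactgcAGTTCTCaaac
Ripk1, chr13:34034083-34034108: cagacaaggtttctcAGTTCTCgctg
Ripk1, chr13:34035935-34035960: caactgatggaagtcAGTTCTCtata
All 4 matches in Traf6 are followed by an A, and those in Ripk1 by a G and a T.

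Libraries held 7.83 to 12.8 M reads. The genotype labels were checked with Tifab, which had 3.23 to 10.99 CPM in the 4 dKO libraries and 8.95 to 12.8 CPM in the TIFAB_KO libraries, against 64.4 to 70.8 CPM in miR-146a_KO and 39.6 to 49.4 CPM in WT libraries. The row of the miR-146a gene had 0 reads in every library, which allows up to 0.235 to 0.383 CPM at a floor of 3 reads and so checks nothing. Among markers of the sorted cells, Kit, Cd34, Fcgr3, Gata2, Myb and Mpo all had reads in all 13 libraries and summed to 8680 to 16594 CPM. Mpo, which averaged 10382 CPM, was most of that sum. The TIFAB_KO libraries, at 14171 to 16594 CPM, lay above all libraries of the other groups, of which the highest had 13356 CPM. Summed markers of other cells over the 13 libraries were 13.3 to 515 CPM for late granulocytes and 357 to 887 CPM for mast cells and basophils. They were 239 to 382 CPM for dendritic cells and 174 to 320 CPM for T and NK cells. The T and NK sum was mostly Nkg7, which averaged 220 CPM. Cd3e, Cd3g, Cd2 and Klrb1c averaged 0.455, 0.222, 0.342 and 0.849 CPM, and Il7r 2.96 CPM. TIFAB_KO replicate 3 and dKO replicate 3 were least like the other libraries, with a median correlation to them over genes of 0.947 and 0.951, against 0.962 to 0.974 for the remaining 11.

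Wdfy1 lies on the minus strand of chr1:79702262-79776143 and was high in every library that lacks miR-146a. It had 77.3, 69.8, 66.1 and 61.7 CPM in dKO replicates 1 to 4. In miR-146a_KO replicates 1 to 3 it had 40.7, 39.3 and 45.2 CPM. The TIFAB_KO libraries had 14.2, 15.7 and 7.35 CPM and the WT libraries 14.3, 11.8 and 17.8 CPM. The dKO libraries were the highest, the miR-146a_KO libraries stood between, and the TIFAB_KO and WT libraries were low and overlapped. These values rest on 94 to 736 reads per library.

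On the log2 CPM scale the means of Wdfy1 were 6.10 ± 0.14 in dKO (SD, n = 4), 5.38 ± 0.11 in miR-146a_KO, 3.57 ± 0.59 in TIFAB_KO and 3.86 ± 0.30 in WT (SD, n = 3 each). As a description, its fold change was 4.73 in dKO over WT (log2 2.24 ± 0.22, SE), 2.88 in miR-146a_KO over WT (log2 1.53 ± 0.24) and 5.79 in dKO over TIFAB_KO (log2 2.53 ± 0.22). The last of these rests partly on TIFAB_KO replicate 3, without which the log2 difference was 2.19. In bulk RNA a larger share of cells that express a gene and more of its RNA per cell cannot be told apart.

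The gap between the lowest library lacking miR-146a and the highest of the other 6 libraries was 1.14 on the log2 CPM scale. Among 11867 tested genes, 126 (1.06%) had all 7 libraries lacking miR-146a above the other 6, and 60 (0.506%) had all 7 below. Wdfy1 had the second widest gap of the 126, after Lyrm7, a mitochondrial complex III assembly factor, at 1.78, and before Atat1, a tubulin acetyltransferase, at 0.276. Wdfy1 was picked for its level in these libraries, so its high rank restates that choice and tests nothing. Lyrm7 lies on chromosome 11 within 11.5 Mb of the miR-146a gene, while Wdfy1 lies on chromosome 1.

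Comparisons that miR-146a status does not enter were tested for Wdfy1 with limma, a linear model with moderated variances fitted over all genes. Loss of Tifab alone gave a log2 difference from WT of -0.29 ± 0.24 (limma, adjusted p = 0.999), and 0.0169% of tested genes were called in that comparison. The sign rested on TIFAB_KO replicate 3, the lowest library, and the difference was 0.05 when it was left out. Loss of Tifab on top of miR-146a gave 0.72 ± 0.22 for dKO against miR-146a_KO, a fold change of 1.64, and the 4 dKO libraries all lay above the 3 miR-146a_KO libraries. That difference had an unadjusted limma p of 0.00489 and did not pass over all genes (adjusted p = 0.9998, and 0.214 to 1.00 over the alternative fits), where 0.0506% of genes were called and 1.61% had dKO libraries above all miR-146a_KO libraries. It is not known whether the pick of Wdfy1 rested more on the dKO or the miR-146a_KO libraries, so this unadjusted p may be too small.

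The interaction, which asks whether dKO differs from the sum of both separate losses, is built from the differences that Wdfy1 was picked on and is described without a test. It was 1.01 ± 0.33 (SE) for Wdfy1 on the log2 scale, and 0.67 without TIFAB_KO replicate 3.

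**Figure D1:**
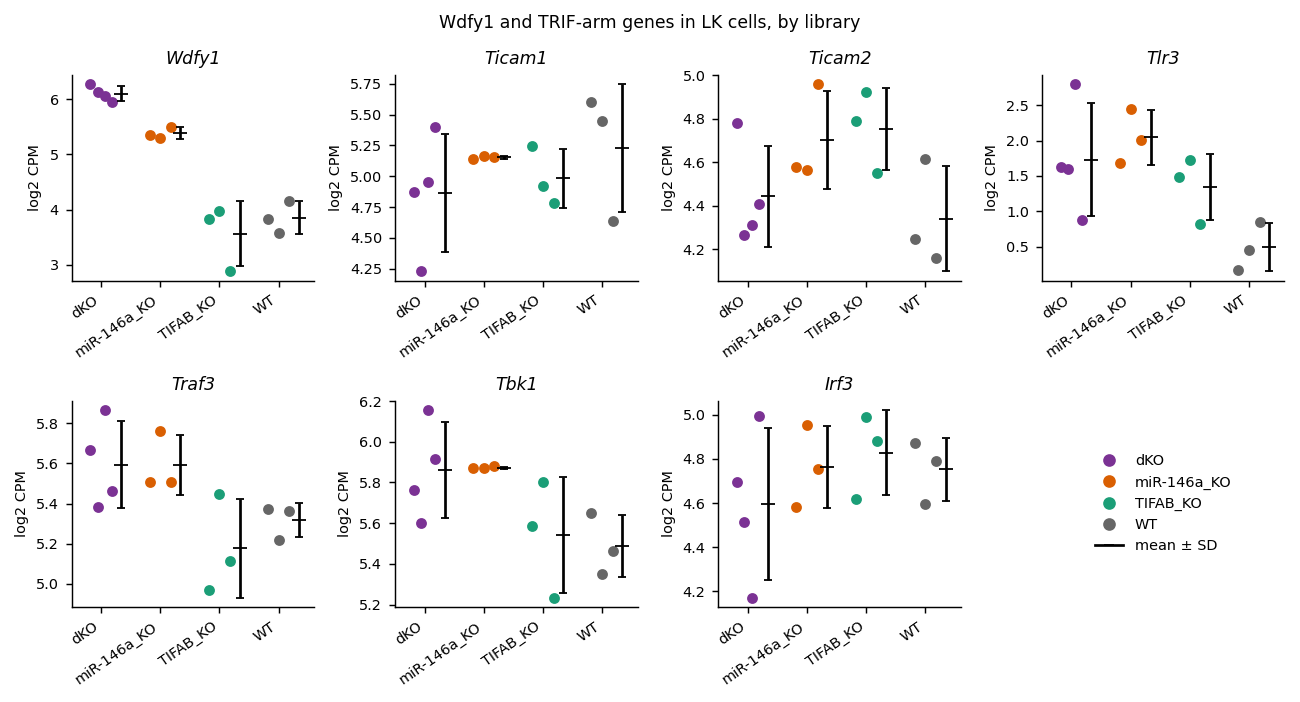
Level of each of the 7 genes in log2 CPM (vertical axis, a separate scale for each gene) by library, with 4 dKO, 3 miR-146a_KO, 3 TIFAB_KO and 3 WT points and the group mean ± SD beside them. In Wdfy1 the dKO points lie highest at 5.95 to 6.27, miR-146a_KO points at 5.30 to 5.50, and TIFAB_KO and WT points lie at or under 4.16.

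TIFAB_KO replicate 3, lowest in Wdfy1, also had the largest share of 45S pre-ribosomal RNA, at 10.7% of reads. That share was 4.36 to 6.43% in dKO and 3.85 to 6.99% in miR-146a_KO libraries, against 6.57 to 10.7% in TIFAB_KO and 4.20 to 9.09% in WT libraries. The 10 largest genes took 9.81 to 12.7% of reads in dKO and 9.75 to 13.6% in miR-146a_KO libraries, against 13.7 to 19.8% in TIFAB_KO and 10.7 to 16.6% in WT libraries. These measures move partly with the miR-146a genotype, and their part in the level of Wdfy1 was not tested.

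Some marker sums of other cells also moved with the genotype. Erythroid markers summed to 1250 to 1958 CPM in dKO, 1272 to 1599 in miR-146a_KO, 1111 to 1338 in TIFAB_KO and 1721 to 2163 in WT libraries, with Hbb-b1 and Hba-a1 at 0 reads throughout. Megakaryocyte markers summed to 358 to 638 CPM in dKO, 393 to 591 in miR-146a_KO, 571 to 658 in TIFAB_KO and 602 to 783 in WT libraries. B-lineage markers, of which Cd79a, Pax5 and Vpreb1 had 0 reads in some libraries, summed to 14.5 to 21.0 CPM in dKO, 22.9 to 26.8 in miR-146a_KO, 13.01 to 16.9 in TIFAB_KO and 12.5 to 16.8 in WT libraries. In each of these lists the miR-146a_KO and WT libraries did not overlap. The part of these cells in the differences of Wdfy1 and of the pathway lists described further on was not tested.

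Without TIFAB_KO replicate 3 and dKO replicate 3, and under every other scaling and filter tried, the log2 difference of Wdfy1 was 2.10 to 2.29 for dKO against WT and 1.41 to 1.53 for miR-146a_KO against WT.

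Of the 6 tested genes nearest to Wdfy1, Ap1s3 had the same order of group means, with smaller differences, and Mrpl44 had another. Mrpl44, a mitochondrial ribosomal protein gene, starts inside the Wdfy1 locus on the opposite strand and shares 126 exon bases with it, and the sources do not say whether counting used strand. Mrpl44 averaged 4.68 ± 0.12 log2 CPM in dKO, 4.74 ± 0.07 in miR-146a_KO, 4.99 ± 0.05 in TIFAB_KO and 4.23 ± 0.23 in WT libraries, so its highest group was a low group of Wdfy1. On the other side Ap1s3, a clathrin adaptor subunit gene 30.3 kb away, averaged 4.62 ± 0.24 in dKO, 4.35 ± 0.02 in miR-146a_KO, 3.93 ± 0.75 in TIFAB_KO and 4.06 ± 0.08 in WT libraries. Its values in TIFAB_KO replicates 1 to 3 were 4.25, 4.47 and 3.07, and the highest WT library had 4.13. The place of TIFAB_KO below WT in Ap1s3 therefore rested on TIFAB_KO replicate 3.

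The log2 difference of dKO from WT was 0.56 ± 0.26 for Ap1s3 (limma, unadjusted p = 0.0441, adjusted p = 0.345) and 0.45 ± 0.16 for Mrpl44 (limma, adjusted p = 0.258). For Ap1s3 the difference of dKO from TIFAB_KO was 0.68 ± 0.26 (limma, unadjusted p = 0.0158, adjusted p = 0.192), and it rested partly on the low TIFAB_KO replicate 3. The next genes were Acsl3 and Utp14b on the side of Ap1s3, at -0.27 ± 0.17 and -0.07 ± 0.20, and Serpine2 and Cul3 on the side of Mrpl44, at -0.37 ± 0.16 and -0.17 ± 0.20. Of 11 tested genes whose start lies within 3000 kb of that of Wdfy1, 0 passed limma in any comparison, and 4 had an unadjusted p under 0.05 in dKO against WT, where 14.1% of all tested genes did.

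**Figure D2:**
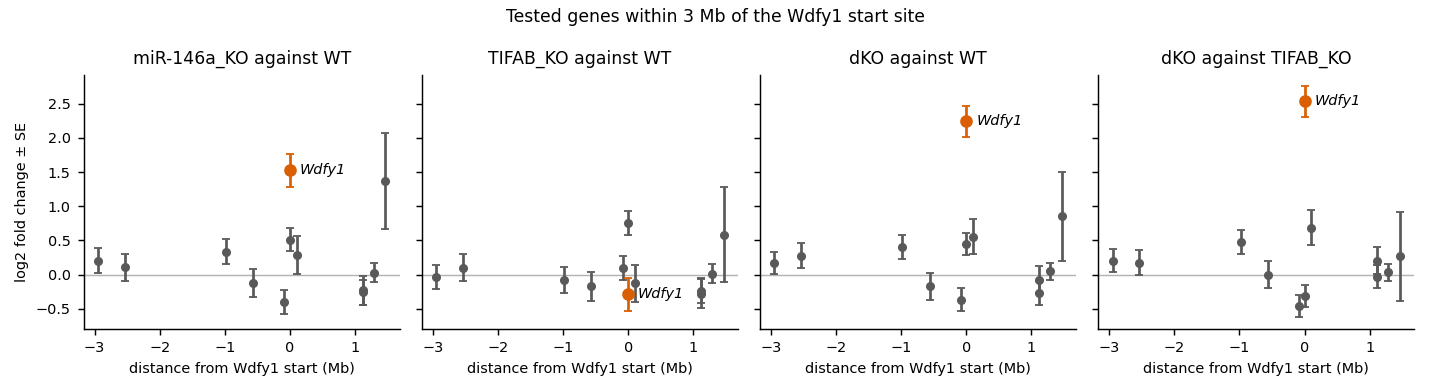
Log2 fold change ± SE (vertical axis) of Wdfy1 (orange) and of 11 tested genes (grey) by the distance of their start from that of Wdfy1 in Mb (horizontal axis), in 4 comparisons. Wdfy1 stands at 1.53 in miR-146a_KO against WT, 2.24 in dKO against WT and 2.53 in dKO against TIFAB_KO, above all 11 grey points, and at -0.29 in TIFAB_KO against WT.

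None of the other 6 genes passed the test in any of the 6 comparisons, of which the 3 with WT share the same WT libraries. The share of all tested genes called was 0.0674% in dKO against WT, 0.0843% in miR-146a_KO against WT, 0.0169% in TIFAB_KO against WT, 0.0337% in dKO against TIFAB_KO and 0.0506% in dKO against miR-146a_KO, so few calls were to be had for any gene. In the interaction 0% were called by limma, and 4.23% had an unadjusted p under 0.05. Over all the alternative fits and with each library left out in turn, the lowest adjusted p of the 6 genes was 0.0638 (limma, Tlr3 in dKO against WT without dKO replicate 4). In miR-146a_KO against WT, 3 of the 6 (Tlr3, Traf3 and Tbk1) had no overlap between groups and were higher, against 15.5% of all tested genes. In dKO against WT, 2 of the 6 (Tlr3 and Traf3) had none, against 8.9% of all tested genes.

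Per kilobase of all annotated exons of the gene merged, which can exceed the length of any 1 transcript, Tbk1 and Ticam1 were the most abundant of the 6 and Tlr3 the least. In CPM per kb, Tbk1 averaged 14.99 ± 2.48 in dKO and 11.5 ± 1.22 in WT libraries. Ticam1 averaged 10.1 ± 3.21 in dKO and 13.04 ± 4.19 in WT libraries on the same scale. Tlr3 averaged 0.707 ± 0.428 CPM per kb in dKO and 0.266 ± 0.0641 in WT libraries. Wdfy1 averaged 10.6 ± 1.02 CPM per kb in dKO libraries, near Ticam1, and 2.26 ± 0.468 in WT libraries, below Ticam2 at 3.52 ± 0.611.

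Tlr3, the endosomal receptor for double-stranded RNA (chr8:45395665-45411080, minus strand), rested on few reads, 13 to 60 per library. It had 3.05, 2.97, 6.91 and 1.79 CPM in dKO replicates 1 to 4 and 3.15, 5.41 and 3.96 CPM in the miR-146a_KO libraries. It had 2.75, 3.25 and 1.72 CPM in the TIFAB_KO libraries and 1.08, 1.32 and 1.74 CPM in the WT libraries. All dKO and miR-146a_KO libraries lay above all WT libraries, dKO replicate 4 by little, and TIFAB_KO replicate 3 fell within the WT range.

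The log2 difference of Tlr3 from WT was 1.24 ± 0.44 in dKO (limma, unadjusted p = 0.0113, adjusted p = 0.254), 1.55 ± 0.47 in miR-146a_KO (unadjusted p = 0.00381, adjusted p = 0.408) and 0.85 ± 0.47 in TIFAB_KO (adjusted p = 0.999). With 2 CPM added before the logarithm, which damps low values, it was 0.68 in dKO and 0.86 in miR-146a_KO. Monocytes and macrophages express Tlr3 in mice. Their summed markers were 189 to 224 CPM in dKO, 182 to 212 in miR-146a_KO, 237 to 252 in TIFAB_KO and 143 to 183 in WT libraries. The WT libraries ran lowest but overlapped miR-146a_KO, and the highest group was TIFAB_KO, whose mean of Tlr3 was below those of miR-146a_KO and dKO. Csf1r averaged 127 CPM and was the largest part of the sum. Of the 7 such markers present, C1qa and Marco had 0 reads in some libraries. The part of these cells in the level of Tlr3 was not tested. An antisense transcript annotated over 381 exon bases of Tlr3 has no row of its own here.

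Ticam1 (chr17:56269319-56276786, minus strand) had 29.2, 18.7, 31.0 and 42.2 CPM in dKO libraries, 35.3, 35.9 and 35.5 CPM in miR-146a_KO, 38.0, 30.2 and 27.4 CPM in TIFAB_KO and 48.6, 43.6 and 24.8 CPM in WT libraries. The dKO and WT ranges both spanned those of the single losses, so the adaptor itself had no order by genotype. Its log2 difference from WT was -0.37 ± 0.25 in dKO (limma, adjusted p = 0.497) and -0.08 ± 0.27 in miR-146a_KO (adjusted p = 0.938).

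Ticam2 (chr18:46557291-46574533, minus strand) had 27.4, 19.2, 19.8 and 21.2 CPM in dKO, 23.8, 23.6 and 31.0 CPM in miR-146a_KO, 27.6, 30.3 and 23.4 CPM in TIFAB_KO and 18.9, 24.4 and 17.8 CPM in WT libraries. It ran somewhat higher in the groups lacking only TIFAB or only miR-146a, with overlap throughout. The log2 difference was 0.41 ± 0.20 in TIFAB_KO against WT (limma, adjusted p = 0.995), 0.10 ± 0.19 in dKO against WT, and the interaction was -0.67 ± 0.28 (unadjusted p = 0.0271, adjusted p = 1.00). Ticam2 shares 838 exon bases on the same strand with Tmed7, so its counts are uncertain to the extent that reads there were split or dropped.

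Traf3 (chr12:111166370-111267153, plus strand) had 50.7, 41.6, 58.2 and 44.0 CPM in dKO, 45.4, 54.3 and 45.4 CPM in miR-146a_KO, 31.3, 43.6 and 34.6 CPM in TIFAB_KO and 41.4, 37.2 and 41.0 CPM in WT libraries. The libraries lacking miR-146a all lay above the WT libraries, the nearest dKO library by less than 1 CPM, but TIFAB_KO replicate 2 fell within their range. The log2 difference was 0.28 ± 0.16 in dKO against WT (limma, adjusted p = 0.441), 0.27 ± 0.18 in miR-146a_KO against WT (adjusted p = 0.623) and 0.41 ± 0.16 in dKO against TIFAB_KO (unadjusted p = 0.0208, adjusted p = 0.202).

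Tbk1 (chr10:121546455-121586787, minus strand) had 54.2, 48.5, 71.2 and 60.4 CPM in dKO, 58.4, 58.4 and 58.8 CPM in miR-146a_KO, 48.0, 55.8 and 37.6 CPM in TIFAB_KO and 50.2, 40.7 and 44.1 CPM in WT libraries. The miR-146a_KO libraries were above every WT library, while dKO replicate 2 fell below WT replicate 1. Its log2 difference from WT was 0.37 ± 0.17 in dKO (limma, unadjusted p = 0.0381, adjusted p = 0.333) and 0.38 ± 0.18 in miR-146a_KO (unadjusted p = 0.0438, adjusted p = 0.521).

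Irf3 (chr7:44997648-45002848, plus strand), the factor at the end of the arm, had 25.9, 22.8, 17.98 and 31.9 CPM in dKO, 23.9, 30.9 and 27.0 CPM in miR-146a_KO, 24.5, 31.7 and 29.4 CPM in TIFAB_KO and 29.3, 24.1 and 27.6 CPM in WT libraries. All 4 groups overlapped. The log2 difference from WT was -0.16 ± 0.19 in dKO (limma, adjusted p = 0.730) and 0.01 ± 0.21 in miR-146a_KO (adjusted p = 0.990), and the sign of the second turned with the scaling of the libraries. Irf3 shares 88 exon bases with Bcl2l12 on the opposite strand.

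**Figure D3:**
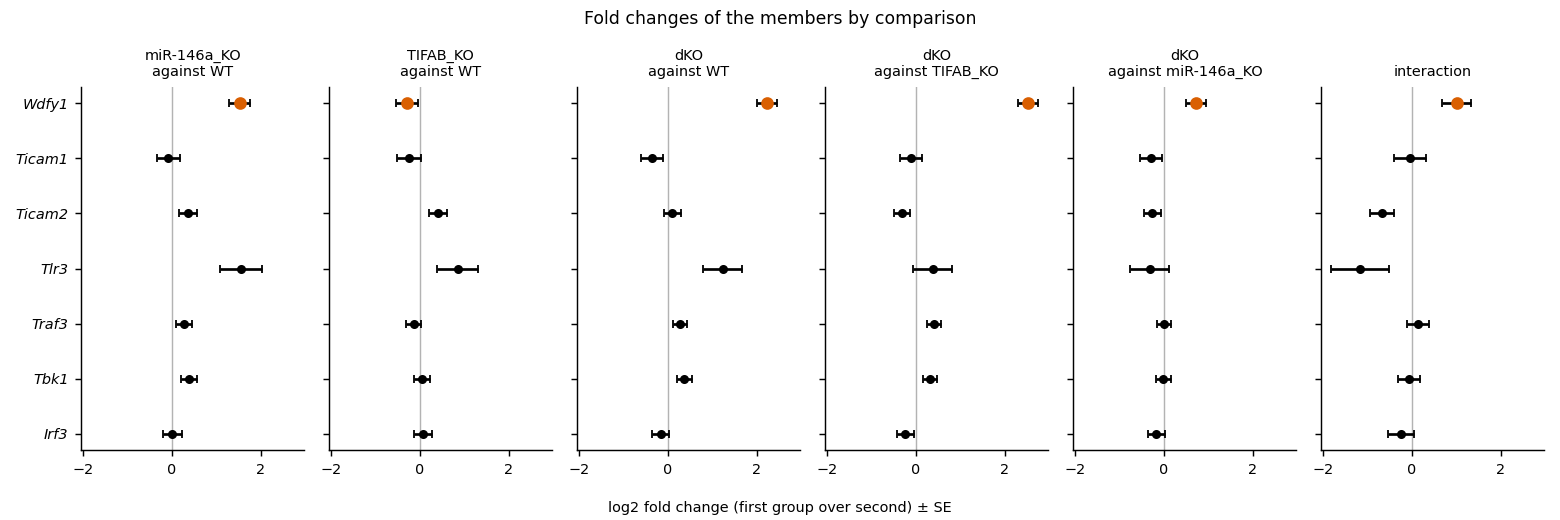
Log2 fold change ± SE (horizontal axis) of the 7 genes in the 6 comparisons, the first group over the second, where the interaction is the difference of dKO from TIFAB_KO less the difference of miR-146a_KO from WT. Wdfy1 (orange) lies at 2.24 in dKO against WT, and Tlr3 is next at 1.24 with the widest error, 0.44.

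The other genes of the arm were taken from 8 lists of 87 genes, of which 80 were tested. By limma 0 of the 80 passed in any of the 6 comparisons. At an unadjusted p under 0.05, 15 were higher and 0 lower in dKO against WT (18.8% of the 80 higher, against 9.7% of all tested genes higher and 4.36% lower). In miR-146a_KO against WT 12 were higher and 1 lower (15% higher, against 7.23% of all tested genes higher and 2.3% lower), and in TIFAB_KO against WT 2 were higher and 2 lower, where 2.99% and 2.12% of all tested genes were. The median log2 difference of the 80 was 0.13 in dKO against WT, where that of all tested genes was 0.08. It was 0.20 in miR-146a_KO against WT, beside 0.09 for all tested genes, and 0.02 in TIFAB_KO against WT, beside -0.01. Ifih1 and Ripk1 passed in dKO against WT when dKO replicate 4 was left out (limma, adjusted p = 0.0248 and 0.0185), a fit in which 336 genes in all were called against 8 with every library. Ripk1 passed in miR-146a_KO against WT when only these groups were fitted (limma, adjusted p = 0.0490), where 89 genes in all were called against 10.

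Among receptors and co-receptors that feed TRIF, 0 of 8 passed. Tlr4, the lipopolysaccharide receptor, averaged 3.37 ± 0.65 log2 CPM in dKO, 3.71 ± 0.20 in miR-146a_KO, 3.45 ± 0.55 in TIFAB_KO and 2.68 ± 0.72 in WT libraries. Ly96, which encodes the MD-2 subunit that binds lipopolysaccharide beside it, averaged 3.53 ± 0.37 in dKO, 2.53 ± 0.44 in miR-146a_KO, 2.78 ± 0.44 in TIFAB_KO and 2.80 ± 0.82 in WT libraries. Unc93b1, the chaperone that delivers Toll-like receptor 3 to endosomes, was lower by 0.71 ± 0.20 in dKO than in TIFAB_KO (log2 -0.71, limma, adjusted p = 0.136).

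In the list of adaptors and kinases bound to TRIF, 0 of 14 passed. Ripk1 averaged 6.74 ± 0.32 log2 CPM in dKO, 6.80 ± 0.09 in miR-146a_KO, 6.38 ± 0.14 in TIFAB_KO and 6.20 ± 0.15 in WT libraries. Its log2 difference from WT was 0.54 ± 0.16 in dKO (limma, adjusted p = 0.216) and 0.60 ± 0.17 in miR-146a_KO (adjusted p = 0.408). Casp8, the protease that pairs with RIPK1 in cell death, differed from WT by 0.44 ± 0.21 in dKO and 0.59 ± 0.22 in miR-146a_KO on that scale. Birc2, a ubiquitin ligase for RIPK1, was at -0.48 ± 0.20 in TIFAB_KO against WT. Traf6, named for its 4 seed matches, differed from WT by 0.15 ± 0.19 in dKO and 0.15 ± 0.20 in miR-146a_KO.

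Beside Tbk1 itself, 0 of 6 genes of its complex passed, although all 6 were above 0 in dKO against WT and in miR-146a_KO against WT, with medians of 0.42 and 0.36 on the log2 scale. Of all tested genes 60.0% were above 0 in dKO against WT and 62.2% in miR-146a_KO against WT. In TIFAB_KO against WT 5 of the 6 were also above 0, with a median of 0.17, where 47.6% of all tested genes were. In dKO against TIFAB_KO 4 of the 6 were, where 60.1% of all tested genes were. With trimmed-mean (TMM) scaling 6 of 6 were above 0 in dKO against WT, where 47.9% of all tested genes were, and 5 of 6 in miR-146a_KO against WT, where 48.7% were. Azi2, an adaptor of TBK1, differed from WT by 0.43 ± 0.16 in dKO (limma, adjusted p = 0.267) and 0.41 ± 0.17 in miR-146a_KO. Ikbke, the kinase closest to TBK1, differed by 0.70 ± 0.28 in dKO and 0.71 ± 0.30 in TIFAB_KO. Sike1, which binds and holds back TBK1, differed by 0.41 ± 0.18 in dKO.

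Receptors and adaptors that reach TBK1 without TRIF gave 0 of 6 passed. All 6 were above 0 in dKO against WT and in miR-146a_KO against WT, against the shares of all tested genes just given, and with TMM scaling 5 were in dKO against WT and 6 in miR-146a_KO against WT. Without TMM scaling, 4 of the 6 were above 0 in TIFAB_KO against WT and 5 of the 6 in dKO against TIFAB_KO. Ifih1, the cytosolic RNA sensor MDA5, averaged 6.06 ± 0.45 log2 CPM in dKO, 5.71 ± 0.15 in miR-146a_KO, 5.47 ± 0.35 in TIFAB_KO and 5.41 ± 0.31 in WT libraries. Mb21d1, the DNA sensor cGAS, differed from WT by 0.46 ± 0.19 in dKO and 0.60 ± 0.20 in miR-146a_KO (limma, adjusted p = 0.303 and 0.451). Tmem173, the adaptor STING, differed by 0.24 ± 0.22 in dKO and 0.53 ± 0.24 in miR-146a_KO.

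Of the brakes on the arm 0 of 7 tested passed. Tnfaip3, the deubiquitinase A20 and itself an NF-kB target, averaged 8.11 ± 0.55 log2 CPM in dKO, 7.88 ± 0.48 in miR-146a_KO, 7.31 ± 1.18 in TIFAB_KO and 8.76 ± 0.31 in WT libraries. Its difference of TIFAB_KO from WT was -1.44 ± 0.41 (limma, adjusted p = 0.585), and it passed at -2.13 when TIFAB_KO replicate 1 was left out (adjusted p = 0.00892). In that fit 44 genes in all were called, against 2 with every library. Otub1 and Rnf216 differed from WT by -0.21 ± 0.17 and 0.21 ± 0.16 in dKO. Sarm1, Trim38 and Socs1 had 4 reads or fewer per library and were not tested.

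The output of the arm gave no call either, with 0 of 7 other interferon regulatory factors and 0 of 22 IRF3 and interferon target genes passing. Ifnb1, the interferon gene at its end, had 0 to 4 reads per library and was not tested, and Ifit3 had 0 to 6. Stat2 differed from WT by 0.52 ± 0.21 in dKO and 0.73 ± 0.22 in miR-146a_KO (limma, adjusted p = 0.283 and 0.408), and Irf9 by 0.40 ± 0.18 in dKO and 0.54 ± 0.19 in miR-146a_KO. STAT2 and IRF9 are parts of the factor that relays type I interferon. Mx2, an antiviral GTPase, averaged 0.31 ± 1.06 log2 CPM in dKO, 2.20 ± 0.80 in miR-146a_KO, -0.08 ± 0.33 in TIFAB_KO and 0.47 ± 1.07 in WT libraries. Irf4 and Irf5 differed from WT by -0.04 ± 0.68 and -0.39 ± 0.28 in dKO.

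Genes related to WDFY1 by domain gave 0 of 10 passed, with Zfyve9 too low to test and Rbsn not matched by symbol. Pikfyve and Eea1, FYVE-domain proteins of endosomes, differed from WT by 0.46 ± 0.17 and 0.46 ± 0.19 in dKO, and Zfyve26 by 0.44 ± 0.20 (limma, adjusted p = 0.263, 0.298 and 0.333). Their log2 differences of dKO from WT ran from -0.23 to 0.46, against 2.24 for Wdfy1. Since Wdfy1 was picked for its level in libraries lacking miR-146a, that contrast in size is a description.

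**Figure D4:**
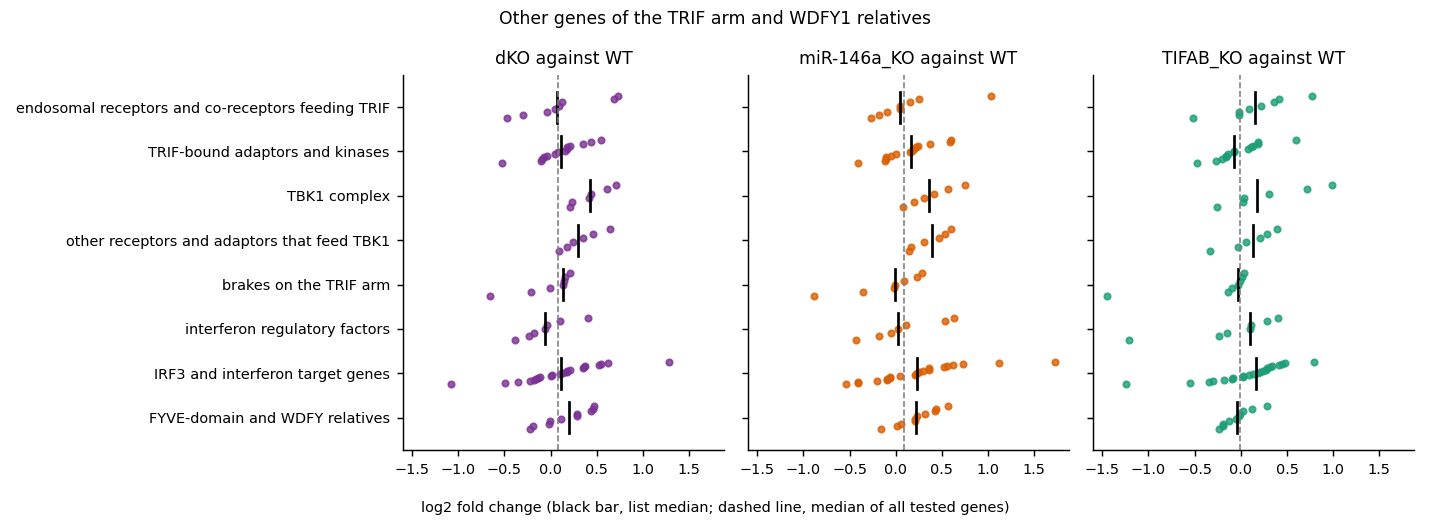
Log2 fold change (horizontal axis) of 80 tested genes in 8 lists, 1 point per gene, for dKO, miR-146a_KO and TIFAB_KO against WT. The black bar is the list median and the dashed line the median of all tested genes, 0.08, 0.09 and -0.01. The TBK1 complex has list medians of 0.42, 0.36 and 0.17.

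The 8 genes of these lists with a miR-146a seed match were all above 0 in dKO against WT, with a median log2 difference of 0.38 and a range of 0.10 to 0.54, where 60.0% of all tested genes were above 0. Of the 71 tested genes of the lists whose UTR lacks the match, 43 were above 0 (60.6%), with a median of 0.10. In miR-146a_KO against WT the counts were 8 of 8 and 47 of 71, with medians of 0.30 and 0.17, and 62.2% of all tested genes were above 0. With TMM scaling 7 of the 8 and 36 of the 71 were above 0 in dKO against WT, and 7 of the 8 and 39 of the 71 in miR-146a_KO against WT. In TIFAB_KO against WT they were 5 of 8 and 38 of 71, with medians of 0.11 and 0.02. The median UTR was longer in the 8, at 1829 bases, than in the 71, at 1218 bases. None of the 8 passed the limma test singly with all libraries fitted, and whether the 8 differ from the 71 was not tested.

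The genes whose levels ran most like Wdfy1 over the 13 libraries, among 10974 genes averaging 1 log2 CPM or more, were Aqr, an intron-binding splicing helicase (Pearson r = 0.95), Blm, the RecQ DNA helicase (0.94), Trappc8, a vesicle-tethering subunit (0.93), Urb1, a ribosome biogenesis factor (0.92), and Dnm1l, the mitochondrial fission GTPase (0.92). The most opposed were Rplp1 (-0.96) and Rplp2 (-0.95), ribosomal stalk proteins, and Gm2a (-0.93), the lysosomal GM2 activator. These r are descriptions of 13 points that fall into 2 sets, the 7 libraries lacking miR-146a and the other 6, and that share depth and RNA quality. Only 2 of these 8 genes were also the extreme ones by Spearman's rho.

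Within the 7 libraries lacking miR-146a, r with Wdfy1 was 0.42 to 0.75 for the 5 alike genes, -0.78 and -0.84 for Rplp1 and Rplp2, and 0.01 for Gm2a. Within the other 6 libraries it was 0.82 to 0.96 for the 5, -0.85 and -0.90 for the stalk genes, and -0.32 for Gm2a. Gm2a therefore followed the division into the 2 sets and not the variation inside them, and it lies on chromosome 11 within 11.7 Mb of the miR-146a gene. It averaged 6.05 ± 0.12 log2 CPM in dKO, 6.09 ± 0.17 in miR-146a_KO, 7.62 ± 0.11 in TIFAB_KO and 7.38 ± 0.23 in WT libraries. Reads of Rplp1 and Rplp2 may be shared with processed pseudogenes.

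The differences of the alike genes were smaller than that of Wdfy1, which was picked for its level in libraries lacking miR-146a. On the log2 scale dKO exceeded WT by 0.45 ± 0.14 for Aqr, 0.46 ± 0.14 for Blm, 0.52 ± 0.14 for Trappc8, 0.44 ± 0.15 for Urb1 and 0.41 ± 0.14 for Dnm1l. Of the other members, Tbk1 had r = 0.75 with Wdfy1, Traf3 0.73, Tlr3 0.60, Ticam2 -0.07, Ticam1 -0.24 and Irf3 -0.34, where the median gene had 0.21.

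**Figure D5:**
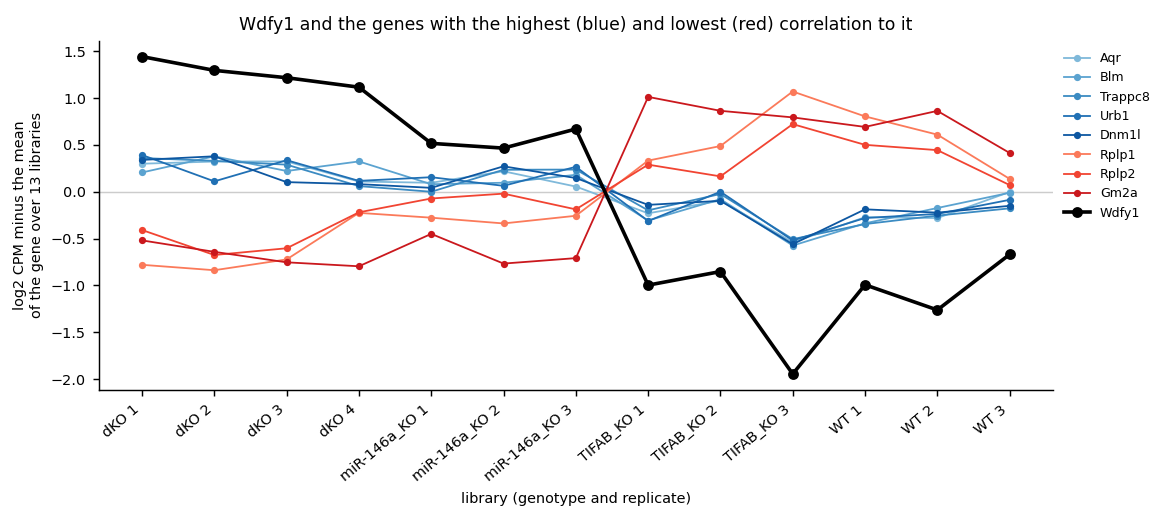
Log2 CPM minus the mean of the gene over 13 libraries (vertical axis) by library (horizontal axis), for Wdfy1 (black), the 5 genes most alike (blue) and the 3 most opposed (red). Wdfy1 spans more than any of the 8, and its lowest point is TIFAB_KO replicate 3, where Rplp1 is highest.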

How the data were processed

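RNA of sorted LK cells was amplified (Ovation RNA-Seq System) and made into Nextera XT libraries, per the labels' protocols. The sources used here do not give strand use in counting. Per the submitters' processing notes, TopHat, featureCounts, limma and the mm10 build were used. The deposited values are log2 CPM in voom form, and whole reads were recovered for 100% of values within 0.01 read.

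From these, limma 3.58.1 (R 4.3.3) fitted 1 mean per group over all 13 libraries with a variance trend, on 11867 genes averaging 0 log2 CPM or more. A Benjamini-Hochberg adjusted p under 0.05 over all tested genes was a call. Fold changes are the first group over the second. The fit was tested on simulated data. Positions come from GENCODE M21 (GRCm38), to which 94.3% of rows matched by symbol.

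The members, lists and tests were chosen with earlier results of these data known. Named genes are the members, the 3 tested neighbours on each side of Wdfy1, the 5 most and 3 least alike genes, and in each list the 3 genes with the smallest p against WT, of which 1 is not reported here. Bst2 and Irf8 stand both in a pathway list and among the dendritic cell markers, and Gata2 in 2 marker lists. Alternatives were 2 other filters, 3 scalings, another pseudocount, 2 other variance models, fits of only the groups compared, a replicate block, Spearman's rho and each library left out, with 2 sets of libraries left out added after seeing the data.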

Additional observations from a re-analysis of the deposited data

How the results depend on the processing

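The planned edgeR and DESeq2 fits were not run, because the deposited values are log2 CPM. In the comparisons that differ in miR-146a, Wdfy1 kept the direction of its difference in every alternative run, with log2 values of 2.10 to 2.29 for dKO against WT, 1.41 to 1.53 for miR-146a_KO against WT and 2.21 to 2.58 for dKO against TIFAB_KO, and with 1 library left out 2.10 to 2.40, 1.38 to 1.68 and 2.19 to 2.74. Trimmed-mean (TMM) scaling moved the median of all genes by -0.10 in dKO against WT, -0.10 in miR-146a_KO against WT and -0.11 in dKO against TIFAB_KO. Depth limits Tlr3 most, with 13 to 60 reads.

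Some log2 differences turned in sign, none of them called, and the cause was not tested. Irf3: miR-146a_KO against WT was -0.069 with median centring, -0.079 with quantile normalization and -0.092 with TMM scaling. Without the 2 libraries least like the others, an alternative chosen after seeing the data, Wdfy1: TIFAB_KO against WT was 0.050, Tlr3: dKO against TIFAB_KO -0.24 and Traf3: dKO against miR-146a_KO -0.089. The last was -0.0010 with quantile normalization and -0.0050 with limma-voom weights, with which Ticam1: interaction was 0.0071. With 1 library left out, values ran from -0.37 to 0.11 for Ticam1 and -0.083 to 0.10 for Irf3 in miR-146a_KO against WT, and from -0.50 to 0.050 for Wdfy1, -0.078 to 0.21 for Tbk1 and -0.0049 to 0.18 for Irf3 in TIFAB_KO against WT. They ran from -0.011 to 0.24 for Ticam2 in dKO against WT, -0.30 to 0.094 for Ticam1 in dKO against TIFAB_KO, and -0.089 to 0.087 for Traf3 and -0.11 to 0.072 for Tbk1 in dKO against miR-146a_KO. For the interaction they ran from -0.23 to 0.25 for Ticam1 and -0.22 to 0.065 for Tbk1.

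Genes called: miR-146a_KO against WT were 10, and 5 with limma without the trend and 89 with only the groups compared, where pathway genes called were 2. Genes called: TIFAB_KO against WT were 2, and 0 with no filter, with quantile normalization or without the trend, and 1 with TMM scaling or only the groups compared. Genes called: dKO against WT were 8, and 4 without the trend and 13 with only the groups compared. Genes called: dKO against TIFAB_KO were 4, and 7 with no filter. Genes called: dKO against miR-146a_KO were 6, and 3 without the trend. With dKO replicate 4 left out, so that replicates 1 to 3 remain, 336 genes and 2 pathway genes were called in dKO against WT and 278 genes and 1 pathway gene in dKO against TIFAB_KO.

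With 1 library left out, genes called ranged from 4 to 12 in miR-146a_KO against WT, 0 to 44 in TIFAB_KO against WT (44 without TIFAB_KO replicate 1), 4 to 336 in dKO against WT (28 without TIFAB_KO replicate 3), 3 to 278 in dKO against TIFAB_KO (124 without TIFAB_KO replicate 2), 2 to 5 in dKO against miR-146a_KO and 0 to 1 in the interaction. Pathway genes called ranged from 0 to 1 in TIFAB_KO against WT, 0 to 2 in dKO against WT and 0 to 1 in dKO against TIFAB_KO. Of the 8 genes most like Wdfy1, 4 to 8 were kept with 1 library left out and 2 with Spearman's rho.

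Groups share replicate numbers 1 to 3, but the numbers did not pair the samples: 2 of 18 same-numbered pairs had a correlation of deviations over 0.1, with a range of -0.197 to 0.229. With the replicate block, which leaves out dKO replicate 4, Wdfy1 differed by 2.29 in dKO against WT and 1.53 in miR-146a_KO against WT. Under this block 286 genes were called in dKO against WT, 2 of them pathway genes, 146 in dKO against TIFAB_KO and 3 in dKO against miR-146a_KO.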
